A study of Homo sapiens with 36 samples.

Results

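Dexamethasone (DEX), a synthetic glucocorticoid, was given for 2 h to BT549 cells in which the transcription factor GATA6 had been knocked down, and open chromatin was compared with that of knockdown cells given vehicle. BT549 is a mesenchymal-like triple-negative breast cancer cell line. The comparison used 6 of the 36 ATAC-seq libraries of the series. In ATAC-seq a transposase cuts accessible DNA, so that stretches with many cuts are called as peaks. Both groups carried a SMARTpool siRNA against GATA6 (siGATA6), a mixture of siRNAs, for 72 h. The siGATA6_DEX group received 500 nM DEX, which was dissolved in water, for 2 h (3 libraries), and the siGATA6_Veh group received vehicle (3 libraries). The labels give the genotype of the line as wild type, and each library was made from 50000 cells. Libraries of 1 cell line stand for that line only.

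Overlapping peaks of these 6 libraries on chromosomes 1 to 22 and X were merged into 178029 regions. Presence in a library meant a peak of that library over the region, with 1 bp as the minimum. A region was gained when 3 of 3 DEX and 0 of 3 vehicle libraries held it, and lost in the reverse case. The rule gave 4181 gained regions, 2.35% of all, and 1069 lost regions, 0.6% of all. No region can be tested alone with 3 libraries against 3, so these are counts under a rule of presence.

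Other groups of the series were used to score these regions and, where stated, to call regions of their own by a like rule. They were cells with control siRNA (siCtl) given vehicle or 500 nM DEX for 2 h (3 libraries each), and cells with no siRNA named in the labels given DMSO, 500 nM DEX for 4 h (DEX_DMSO), 10 µM BRM014 for 4 h, or DEX with BRM014 (DEX_BRM014), with 4 libraries each. BRM014 inhibits the ATPases of the SWI/SNF chromatin remodelling complexes. Libraries are biological replicates by their titles. P-values below come from permutation tests with the library as the unit.

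DEX binds the glucocorticoid receptor, a nuclear receptor encoded by NR3C1 that moves into the nucleus once it has bound its ligand. There it binds palindromic DNA elements, most of them far from gene starts, and works with SWI/SNF complexes that move nucleosomes. Direct target genes include FKBP5, which encodes a cochaperone of the receptor, and TSC22D3, which encodes the leucine zipper protein GILZ. GATA6 is a zinc finger factor of endoderm and heart development that binds DNA motifs with a GATA core.

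Sequences of gained promoters are shown first, because a receptor-type palindrome within them can be seen directly. RefSeq promoter windows of the GRCh38.p14 table (250 bp before to 50 bp after a gene start, 300 bp) overlapped a gained region in 75 cases, out of 34789 windows. The palindrome searched was GNACA, any 3 bases and TGTNC, with N for any base, which reads alike on both strands. It is a loose form of the glucocorticoid response element, and it was present in 6 of the 75 windows (8.0%). It was present in 136 of all windows (0.391%), in 31 of 15893 windows over regions held by all 6 libraries (0.195%), and in 0 of 18 windows over lost regions. In all 6 windows the palindrome lay inside the gained region. They are printed 5′ to 3′ on the strand of the gene, with the palindrome in capitals.
LNCOG, chr12:76259633-76259932, plus strand: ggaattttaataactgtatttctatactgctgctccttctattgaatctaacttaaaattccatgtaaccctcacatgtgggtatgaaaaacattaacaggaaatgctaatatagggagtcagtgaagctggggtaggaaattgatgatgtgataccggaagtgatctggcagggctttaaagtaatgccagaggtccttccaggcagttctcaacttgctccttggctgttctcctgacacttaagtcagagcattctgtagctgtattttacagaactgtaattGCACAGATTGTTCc
CAMKK1, chr17:3890694-3890993, minus strand: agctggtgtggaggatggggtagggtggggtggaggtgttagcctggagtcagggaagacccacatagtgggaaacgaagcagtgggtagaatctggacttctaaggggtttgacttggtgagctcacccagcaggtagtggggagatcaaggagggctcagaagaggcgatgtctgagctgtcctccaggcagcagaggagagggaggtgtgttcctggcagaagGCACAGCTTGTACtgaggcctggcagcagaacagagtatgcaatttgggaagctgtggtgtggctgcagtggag
ILVBL-AS1, chr19:15123910-15124209, plus strand: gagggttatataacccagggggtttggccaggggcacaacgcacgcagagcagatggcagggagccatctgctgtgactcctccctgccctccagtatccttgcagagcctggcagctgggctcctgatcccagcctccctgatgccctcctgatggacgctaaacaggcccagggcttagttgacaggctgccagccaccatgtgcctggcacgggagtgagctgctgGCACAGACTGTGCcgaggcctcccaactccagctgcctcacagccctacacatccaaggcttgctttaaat
SMIM2-IT1, chr13:44158173-44158472, minus strand: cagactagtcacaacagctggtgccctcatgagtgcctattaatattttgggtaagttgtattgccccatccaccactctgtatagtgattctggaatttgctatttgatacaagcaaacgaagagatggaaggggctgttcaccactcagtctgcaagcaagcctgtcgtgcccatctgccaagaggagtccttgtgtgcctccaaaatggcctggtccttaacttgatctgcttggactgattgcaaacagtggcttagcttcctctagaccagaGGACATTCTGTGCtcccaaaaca
OR7A5 and OR7C1, chr19:14835136-14835435, minus strand: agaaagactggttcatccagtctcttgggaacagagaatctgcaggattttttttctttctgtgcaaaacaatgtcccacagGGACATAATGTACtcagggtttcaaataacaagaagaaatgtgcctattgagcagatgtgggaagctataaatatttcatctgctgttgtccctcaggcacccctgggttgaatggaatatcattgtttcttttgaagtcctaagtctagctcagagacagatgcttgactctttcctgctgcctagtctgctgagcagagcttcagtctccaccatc
SMARCD2, chr17:63838679-63838978, minus strand: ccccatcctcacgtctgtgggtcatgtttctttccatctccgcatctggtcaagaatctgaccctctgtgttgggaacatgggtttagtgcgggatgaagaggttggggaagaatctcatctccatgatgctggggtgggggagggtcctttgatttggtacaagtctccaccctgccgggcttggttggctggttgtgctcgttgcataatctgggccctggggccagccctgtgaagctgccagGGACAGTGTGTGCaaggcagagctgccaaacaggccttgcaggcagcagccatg

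The CAMKK1 palindrome began at position -24 relative to the gene start, and its centre lay 1 bp from the median summit of the DEX peaks. CAMKK1 encodes a kinase that activates calcium/calmodulin-dependent kinases. Its region was held by 3 of 3 siCtl DEX and 0 of 3 siCtl vehicle libraries, and by 4 of 4 DEX_DMSO and 0 of 4 DMSO libraries. The SMARCD2 palindrome, in the promoter of a SWI/SNF subunit gene, began at position -4, also within 4 bp of the summit. The deposited fold enrichments of the SMARCD2 peak over the background of its library were 3.92, 4.31 and 3.22 in the DEX libraries. The LNCOG peak was higher, with folds of 14.7, 16.0 and 17.1, and its palindrome lay 110 bp from the summit, at the edge of the window. The LNCOG region was also held by 2 of 3 siCtl vehicle and 1 of 4 DMSO libraries. The SMARCD2 region was held by 1 of 4 DEX_DMSO libraries and the ILVBL-AS1 region by 0 of 4, while SMIM2-IT1 and the OR7A5 and OR7C1 window were held by 3 of 4 and by 0 of 4 DMSO libraries.

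The other motifs were counted in the same windows. TGANTCA, an AP-1 type motif, was present in 7.69% of all windows, in 8 of 75 gained windows (10.7%) and in 5 of 18 lost windows (27.8%). GGAATG, a TEAD type motif, was present in 14.1% of all, 12% of gained and 16.7% of lost windows. AGATAA, of the kind bound by factors of the GATA6 family, was present in 10.4% of all, 9.33% of gained and 11.1% of lost windows. The full palindrome, AGAACA, any 3 bases and TGTTCT, was present in 1 of all windows and in none of the 75. All motifs were searched on both strands. Every full palindrome is also a loose one, and the other motifs do not contain each other. A match describes letters only. Most gained regions lie outside promoter windows, and their sequence was not analysed here.

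The libraries were similar in size and in their markers. DEX libraries had 120357, 121913 and 131423 peaks, and vehicle libraries had 114625, 114113 and 126192. The difference of 6254 peaks was within the unpaired spread (two-sided exact permutation p = 0.3, n = 3 and 3, smallest possible p 0.1). Replicate 3 was the largest in both groups, and each DEX library had more peaks than the same-numbered vehicle library. With same-numbered libraries as pairs the exact sign-flip permutation p was 0.25, the smallest that 3 pairs allow. The difference was 2825 without siGATA6_DEX replicate 3 and 10195 without siGATA6_Veh replicate 3. The share of distal peaks, with summits over 1000 bp from any gene start, was 77.7% ± 1.02 (SD, n = 3) with DEX and 77.4% ± 0.717 (SD, n = 3) with vehicle (exact permutation p = 0.7). A background level recovered from the deposited folds and p-values, a measure of relative depth, was 0.522, 0.677 and 0.591 with DEX and 0.522, 0.512 and 0.587 with vehicle (ratio of means 1.10, exact permutation p = 0.2). The gene starts of 8 of 8 mesenchymal markers, among them VIM and ZEB1, held a peak in all 6 libraries, while luminal markers were mixed. Of 9 luminal markers ESR1 and PGR had no peak at the start, FOXA1, ERBB2 and KRT8 had one in all 6 libraries, CDH1 and KRT18 in 5, EPCAM in 4 and ESRP1 in 3. Of 8 marker genes of blood, endothelial and neural cells, 6 had no peak at the start in any library, while CD3E and SYP had one in all 6. No strand was given for TWIST1, SNAI2, EPCAM, CDH1, KRT18, ESRP1 and CD3E, so a peak at either end of these genes counted. The GATA6 start held peaks in all 6 libraries. Peak lists do not measure GATA6 RNA or protein, so the depth of the knockdown was not analysed here.

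More regions were called open under DEX in the knockdown cells than were called closed. The 4181 gained regions outnumbered the 1069 lost regions. Among regions held by 2 libraries of 1 group only, 5637 were held by DEX libraries and 3503 by vehicle libraries. Among regions held by a single library, 23340 belonged to DEX and 20393 to vehicle. As a ratio, DEX to vehicle, the excess was lowest for single libraries and highest where all 3 libraries of a group held the region. Just outside the rule for a gain lay 3164 regions held by 3 DEX and 1 vehicle library, the best ranked of which was in PDE4DIP at chr1:148901204-148901390. When an equal number of best peaks was kept in every library, 3497 regions were gained and 1366 lost, and with only peaks of −log10 q of at least 5 the counts were 3322 and 633. Leaving out a single library loosens the rule. It gave 6430 gained regions without siGATA6_DEX replicate 1, and 1569 to 2397 lost regions over the 6 libraries left out in turn.

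**Figure D1:**
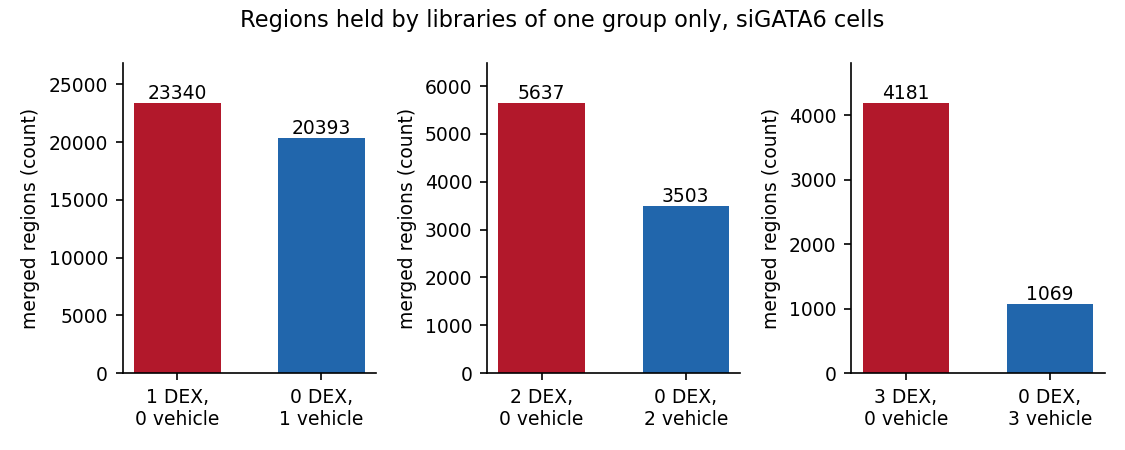
Each panel counts merged regions held by 1, 2 or 3 libraries of one group and by none of the other (bars from 0, own scale per panel, siGATA6_DEX in red, siGATA6_Veh in blue). The DEX bar was 23340 against 20393 for 1 library, 5637 against 3503 for 2, and 4181 against 1069 for 3.

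Gained regions were wider and stronger than lost regions. Their median width was 223 bp (quartiles 162 and 310), against 158 bp (quartiles 129 and 201) for lost regions and 274 bp for regions held by all 6 libraries. The median of the deposited fold, taken as the median over the 3 libraries holding a region, was 5.91 in gained and 4.95 in lost regions. The highest were 32.9 in a gained and 11.3 in a lost region. Peaks were ranked within each library by −log10 p, with 0 as the best percentile. The median rank percentile was 70.9 for gained and 81.4 for lost regions. Of the gained regions 74 (1.77%) lay in the best 25% of ranks, and none of the lost regions did. Of the lost regions 783 (73.2%) lay in the weakest 25% of ranks, against 39.9% of gained regions. These widths, folds and ranks come from the libraries that defined the calls and are given as a description.

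Most changed regions lay away from promoters. Of the gained regions 342 (8.18%) were centred within 1000 bp of a gene start, as were 69 (6.45%) of the lost regions, 18% of all regions and 25.6% of regions held by all 6 libraries. Regions held by a single library stood at 9.92%. The median distance to the nearest start was 21000 bp for gained, 28791 bp for lost and 14918 bp for all regions. Inside protein-coding genes lay 54.1% of gained, 45.5% of lost and 51.5% of all regions. Exons and introns were not told apart. Gains were spread over every chromosome analysed, from 1.59% of the regions of chromosome 19 to 2.92% of those of chromosome 5. Losses also ranged from the lowest share on chromosome 19 (0.255%) to the highest on chromosome 5 (0.972%).

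The strongest gained regions lay near a mixed group of genes. The best ranked was chr10:72248256-72249118, 25.2 kb before the start of the stress-response gene DDIT4 and 12.8 kb beyond the nearest gene, ANAPC16. Its folds were 13.0, 14.2 and 13.8 in the 3 DEX libraries, and no vehicle library held it. A region 16.6 kb from the polycystin family gene PKD1L1, chr7:47757903-47758223, had the highest folds of the 12 best, at 27.8, 32.9 and 34.9. Inside LAMA3, which encodes a laminin chain of epithelial basement membrane, chr18:23725671-23726227 had folds of 22.5, 28.6 and 23. Inside ZBTB16, a glucocorticoid-induced zinc finger gene, chr11:114179194-114179859 had folds of 24.1, 21.0 and 26.6. A region 44.5 kb from PIK3R1, the gene of a regulatory subunit of PI3-kinase, had folds of 23.3, 27.0 and 28.5 at chr5:68171013-68171569. The other 7 of the 12 best were nearest to ZNF217, CDKN2B, SVIL, COL28A1, VARS2, RAD21 and HOXC9. All 12 were held by 3 of 3 siCtl DEX and 4 of 4 DEX_DMSO libraries. The regions in HOXC9, 114 bp from a gene start, and in RAD21 were also held by all 3 siCtl vehicle libraries, and those of SVIL and COL28A1 by 2 of 3.

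Lost regions were weaker. The best ranked was in ZFP36L1, which encodes an RNA-binding protein that speeds mRNA decay, at chr14:68788996-68789160, with folds of 5.84, 6.81 and 4.18 in the vehicle libraries. It was held by 3 of 3 siCtl vehicle and 1 of 3 siCtl DEX libraries, and by 3 of 4 DMSO and 0 of 4 DEX_DMSO libraries. A lost region in PITPNM3, a phosphatidylinositol transfer protein gene, had higher folds of 10.8, 12.6 and 7.56 (chr17:6524588-6524841). It was held by 3 of 3 siCtl vehicle and 2 of 3 siCtl DEX libraries. A region in NFIB, which encodes a nuclear factor I protein, was held by 2 of 3 siCtl vehicle libraries, by none of the siCtl DEX libraries and by none at 4 h (chr9:14358648-14358778). The region near FJX1 was held by 3 of 4 DMSO and 0 of 4 DEX_DMSO libraries (chr11:35622207-35622364).

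Gained regions formed groups along the genome at several glucocorticoid target genes. Regions were joined where the next gained region lay within 50 kb. Of the 4181 gained regions 1416 (33.9%) had such a neighbour, and 152 groups held 3 or more. The largest lay across and beyond TSC22D3, with 10 gained among 19 regions in 73.8 kb (chrX:107674040-107747862). At FKBP5, 7 of 9 regions in 37.7 kb were gained (chr6:35691445-35729193). Further groups of 7 lay around DDIT4 and in GSE1, and a group of 6 covered NIBAN2 and LRSAM1. Of the lost regions 78 (7.30%) had a lost neighbour, and the largest groups held 3, in SPOCK1 and nearest to TBX18. Lost regions are fewer, which by itself makes neighbours rarer.

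FKBP5 (chr6:35573590-35728583, minus strand) had 8 gained and 0 lost regions among 29 in the gene or within 50 kb. They lay from 0.516 kb before the gene start to 126 kb inside. The strongest, chr6:35722352-35722845, had folds of 8.48, 10.1 and 8.95. The region nearest the start, chr6:35729004-35729193, had folds of 4.09, 3.38 and 4.02. All 8 were held by 3 of 3 siCtl DEX and 0 of 3 siCtl vehicle libraries, and 7 of them by 4 of 4 DEX_DMSO libraries. The exception, chr6:35715514-35715832, was held by 1 DEX_DMSO library. Of all 29 regions 20 were held by more DEX than vehicle libraries and 0 by more vehicle libraries.

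TSC22D3 (chrX:107713221-107775988, minus strand) had 10 gained regions among 24. One lay inside the gene, 28.2 kb from the start, and 9 lay beyond its end, up to 102 kb from the start. The region with the highest folds, chrX:107700347-107700725, had values of 11, 11.4 and 11.8. The weakest by rank, chrX:107691138-107691304, had folds of 4.60, 5.96 and 3.77 and was held by 2 of 3 siCtl DEX libraries and 1 of 4 DEX_DMSO libraries. The neighbouring gene PRPS1, a phosphoribosyl pyrophosphate synthetase gene, counts 7 gained regions within 50 kb because it shares this stretch.

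DDIT4 (chr10:72273924-72276036, plus strand) encodes an inhibitor of mTORC1 signalling. It had 6 gained and 1 lost regions among 26. Its neighbour ANAPC16, the gene of a subunit of the anaphase-promoting complex, also counted 6 gained regions and shares part of this stretch. Besides the region 25.2 kb upstream, a weak one lay 3.49 kb after the start at chr10:72277238-72277584, with folds of 2.47, 2.24 and 2.72. The lost region, chr10:72310817-72311009, was held by 3 of 3 siCtl vehicle, 0 of 3 siCtl DEX, 4 of 4 DMSO and 0 of 4 DEX_DMSO libraries. It lay close to the gained region chr10:72309431-72309709, which showed the reverse pattern in all 4 groups.

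DUSP1 (chr5:172768096-172771195, minus strand), the gene of a MAP kinase phosphatase, had 3 gained regions, all upstream, from 1.34 to 24.3 kb before its start. The farthest, chr5:172795346-172795730, had the highest folds, at 12, 11.2 and 12.3. All 3 were held by every siCtl DEX and every DEX_DMSO library. KLF9, a Kruppel-like factor gene, had 2 gained regions among 22. One at chr9:70445036-70445237 had folds of 15.1, 10.1 and 11.3, and was also held by 1 of 3 siCtl vehicle and 2 of 4 DMSO libraries. The other, chr9:70418444-70418649, had folds of 4.03, 4.50 and 4.77 and was held by 0 of 3 and 0 of 4 of these. Both were held by every siCtl DEX and every DEX_DMSO library. ERRFI1, whose product restrains EGFR signalling, had 2 gained regions in the knockdown cells and 7 in siCtl cells called the same way. The difference between those counts was not tested. CRISPLD2, which encodes a secreted protein, had 3 gained regions among 34, and ZBTB16 had 5 among 37.

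The GATA6 gene itself (chr18:22169589-22202528, plus strand) had 3 gained regions among 25. The strongest, chr18:22199018-22199349 inside the gene, had folds of 11.4, 12.9 and 16.6, and was held by 3 of 3 siCtl DEX, 0 of 3 siCtl vehicle, 4 of 4 DEX_DMSO and 0 of 4 DMSO libraries. A smaller one 5.40 kb from the start, chr18:22174939-22175040, had folds of 4.98, 3.81 and 5.66 and was also held by 2 siCtl vehicle libraries. The third lay beyond the gene end at chr18:22214770-22215010, with folds of 4.96, 5.85 and 5.84.

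At other genes no region met the rule for a gain. PER1, a clock gene, had 0 gained and 0 lost of 34 regions, 25 of which were held by all 6 libraries. A region held by all 6 cannot be called gained, whatever DEX does to its height. More DEX than vehicle libraries held 6 PER1 regions, and more vehicle libraries held 0. SGK1, a kinase gene, had 0 gained and 0 lost of 28, with 9 held by more DEX and 6 by more vehicle libraries. NR3C1, the receptor gene (chr5:143277931-143435512), had 0 gained and 1 lost of 30. At NR3C1 16 of 30 regions were held by more vehicle than DEX libraries and 3 by more DEX libraries. Over all merged regions these shares were 20.9% and 26.6%. The lost NR3C1 region, chr5:143349315-143349507, had folds of 8.19, 5.85 and 4.61 and was held by 3 of 3 siCtl vehicle and 2 of 3 siCtl DEX libraries.

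**Figure D2:**
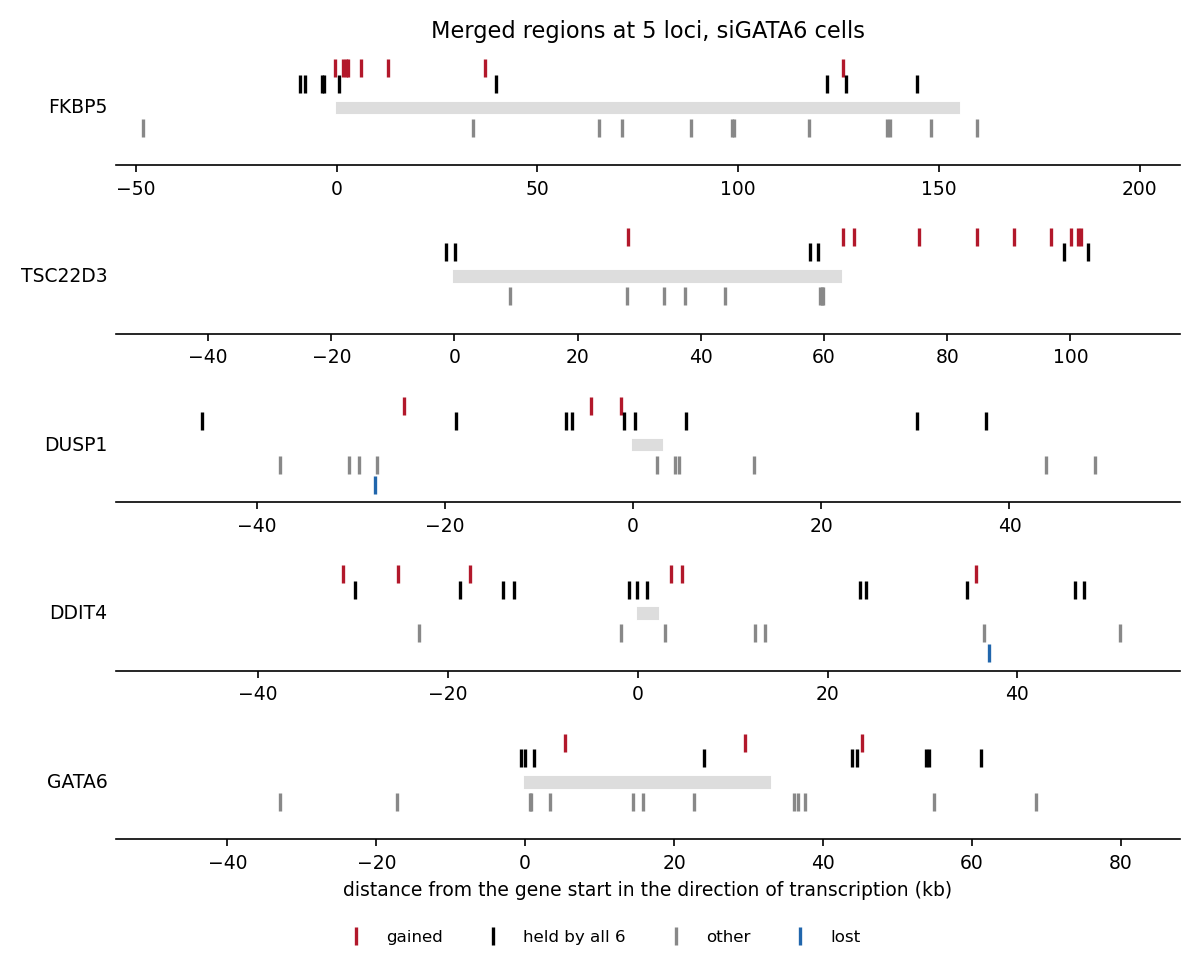
Merged regions in 5 genes and within 50 kb, by distance in kb from the gene start in the direction of transcription; ticks mark region centres by class and the grey bar is the gene. FKBP5 had 8 gained regions, most of them near its start, TSC22D3 had 9 of 10 beyond its end, and all 3 of DUSP1 lay upstream.

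Genes were then compared with the background of all genes. Of 19974 protein-coding genes 4584 (22.9%) had a gained region inside or within 50 kb, and 1186 (5.94%) had a lost one. The median gene had 0 of either. In 54 genes 5 or more regions were gained. GSE1, which encodes a protein of a histone deacetylase complex, led with 12 gained of 107 regions. KCNMA1, a calcium-activated potassium channel gene, had 10 gained of 131, a smaller share of its regions than at TSC22D3 (10 of 24) or FKBP5 (8 of 29). LPP, a focal adhesion gene, had 7 gained of 97, and PLCE1, a phospholipase gene, 7 of 55. AFF3, a transcription elongation factor gene, had 6 of 52. ARMC12 had 7 of 16 because it adjoins FKBP5.

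Glucocorticoid receptor targets often had gained regions nearby. Of 48 target genes 33 (68.8%) had one, against 22.9% of all protein-coding genes, and their median was 2 gained regions per gene. Of the 1020 regions near them 96 (9.41%) were gained, against 2.35% of all regions. After TSC22D3, FKBP5 and DDIT4 came TGFBR3, which encodes the coreceptor betaglycan, with 6. Its strongest by rank, chr1:91801791-91802151, had folds of 7.67, 10.1 and 8.53. A lost region lay near 3 targets (6.25%, against 5.94% of all protein-coding genes), namely DDIT4, DUSP1 and the sodium channel gene SCNN1A. The list was written from knowledge of the receptor and with earlier results of these data known.

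Genes of the YAP and TEAD growth pathway also had gained regions nearby. Of 24 members 17 (70.8%) had one, against 22.9% of all protein-coding genes. Of the 714 regions near them 31 were gained (4.34%), against 2.35% of all regions. Fewer members, 11 of 24 in siCtl cells and 8 of 24 at 4 h, had a gained region there. In those comparisons 2.49% and 1.52% of all regions were gained. Of the 48 receptor targets 34 and 27 had one. ASAP1, which encodes an ARF GTPase-activating protein, had 6 of 101 regions, where the median protein-coding gene had 14 regions nearby. F3, the tissue factor gene, had 3 just outside the gene, at chr1:94543966-94544261, chr1:94544297-94544529 and chr1:94545218-94545381. The first had folds of 8.64, 8.56 and 4.37, and all 3 were held by every siCtl DEX library but by at most 1 DEX_DMSO library. WWTR1, which encodes the YAP paralogue TAZ, had 2 gained and 2 lost regions.

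The next lists are again read beside 22.9% of all protein-coding genes with a gained region and 2.35% of all regions gained. MAP kinase phosphatases and EGFR feedback genes had a gained region in 11 of 23 members (47.8%), with 18 of 362 regions gained (4.97%). SPRY4, an inhibitor of receptor tyrosine kinase signalling, had 3. Its strongest, chr5:142357834-142358075, had folds of 9.30, 12.5 and 12.3. EGFR itself had 1 gained and 2 lost regions. Of the Kruppel-like factors 6 of 15 had a gained region (3.79% of their regions). KLF15 led with 4, the best ranked at chr3:126266315-126266542 with folds of 7.35, 6.26 and 7.67. Of 19 clock genes 7 had one (2.45% of regions). The PAR-type leucine zipper gene TEF had 3, each held by 4 of 4 DEX_DMSO libraries.

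Gene lists of the mesenchymal, luminal and basal states had both gained and lost regions nearby, beside 2.35% of all regions gained and 0.6% lost. Of all protein-coding genes 22.9% had a gained and 5.94% a lost region nearby. Mesenchymal and matrix genes had gained regions in 18 of 40 members (2.55% of their regions, near the share of all regions) and lost regions in 9 of 40 (0.916%). CALD1, CDH2, HAS2 and ITGB1 had 2 gained regions each, and COL1A1, COL3A1, COL5A2 and LOX had 1 lost region each. Luminal epithelial genes had gained regions in 12 of 27 (3.42% of regions) and lost regions in 4 (0.855%). Basal mammary genes had them in 10 of 22 (3.28%) and in 4 (0.911%), and LAMA3 had 4 gained and 1 lost. AP-1 factors had gained regions in 8 of 15 (2.72% of regions) and lost regions in 0.

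For the remaining lists the share of regions gained lay near or below 2.35%. Their members are read beside 22.9% of all protein-coding genes with a gained region nearby. NF-κB and cytokine genes had gained regions in 6 of 27 members (2.48% of regions). NFKBIA, which encodes the NF-κB inhibitor IκBα, had 3, one of them inside the gene at chr14:35403130-35403252. GATA factors and endoderm genes had 4 of 22 (1.61% of regions), and steroid receptors and cofactors had 3 of 17 (1.6%). Lost regions lay near 4 of those 17, among them the coactivator gene NCOA2, NR3C1 and the cochaperone gene PTGES3. They were 1.06% of the 376 regions near these genes, against 0.6% of all regions, and 5.94% of all protein-coding genes had one. The NCOA2 region was held by 3 of 3 siCtl DEX and 1 of 3 siCtl vehicle libraries, and the PTGES3 region by 2 of 3 in both. SWI/SNF subunits had 8 of 28 (1.74% of regions), cell cycle genes 9 of 33 (1.68%) and ribosomal protein genes 12 of 48 (1.51%). Markers of leukocytes had 2 of 12 (1.34% of regions), of endothelium 3 of 11 (2.56%) and of neural cells 1 of 10 (0.508%). Genes with more regions have more chances to hold a changed one, so the share of regions is given beside the share of members.

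**Figure D3:**
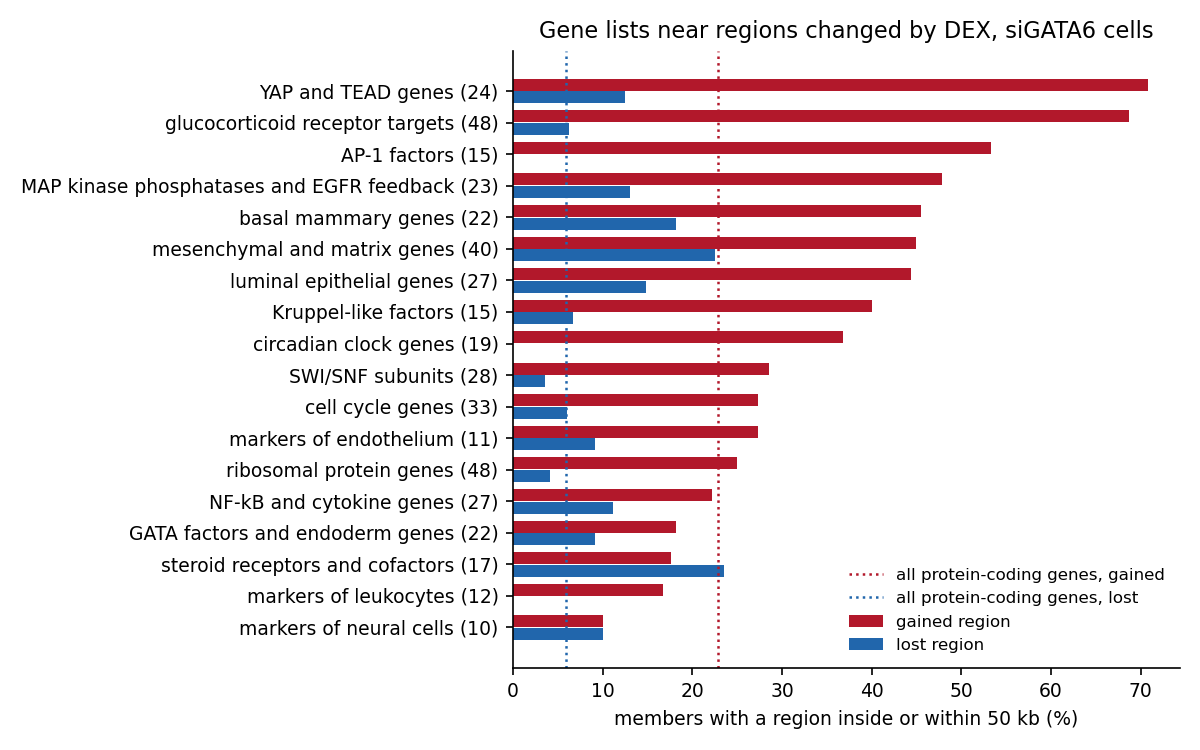
Bars from 0 give the percent of matched members (number in brackets) of each list with a gained (red) or lost (blue) region inside the gene or within 50 kb, and dotted lines give all protein-coding genes, 22.9% and 5.94%. YAP and TEAD genes (70.8%) and glucocorticoid receptor targets (68.8%) reached the highest gained shares of members. Of the regions near them 4.34% and 9.41% were gained.

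Lost regions were most numerous at a few genes, several of them long. PRKG1, a cGMP-dependent kinase gene of 1307 kb, and ABLIM1, an actin-binding gene of 370 kb, had 4 each, of 95 and 68 regions. In ABLIM1 the best ranked was chr10:114686177-114686387, with folds of 4.49, 6.48 and 4.97, and 3 of 3 siCtl vehicle and 0 of 3 siCtl DEX libraries held it. CDH10, SPOCK1, FZD6 and ZNF385B had 3 each. SPOCK1, which encodes a matrix proteoglycan, had 5 gained regions as well, and its 3 lost regions lay together at chr5:137336921-137371003. In all 433 genes had both a gained and a lost region.

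The gained regions were also open under DEX in cells with control siRNA, in libraries that took no part in choosing them. A peak was held at 78.1, 79.0 and 84.9% of the 4181 gained regions in the 3 siCtl DEX libraries. The siCtl vehicle libraries held one at 11.7, 12.1 and 13.1%. The groups did not overlap, and the means were 80.7% ± 3.68 (SD, n = 3) and 12.3% ± 0.700 (SD, n = 3). The difference of 68.3 percentage points had the smallest p that the design allows (two-sided exact permutation p = 0.1). Over all merged regions the siCtl groups stood at 61.8 and 60.7%.

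The lost regions were held less often under DEX in siCtl cells. A peak was held at 28.5, 28.4 and 27.8% of the 1069 lost regions with DEX and at 60.2, 60.3 and 56.5% with vehicle. The difference was -30.8 percentage points (exact permutation p = 0.1, the smallest possible). At regions held by all 6 knockdown libraries the siCtl values were 97.0 and 97.6%.

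The full call was shared for about as many gained regions as not, and for few lost regions. By the same rule siCtl libraries called 2243 of the 4181 gained regions (53.6%) as gained and 13 as lost. No siCtl DEX library held 256 (6.12%), and at least 1 siCtl vehicle library held 945 (22.6%). Merged on their own, the siCtl libraries gave 4325 gained regions, 2.49% of 173775, and 1416 lost regions, 0.815%. Of the siGATA6 gains 52.9% overlapped a siCtl gain, and of the siCtl gains 51.1% overlapped a siGATA6 gain. For lost regions these shares were 8.33% and 6.36%. A shared full call needs all 6 further libraries to fall on their side of the peak threshold, so these shares do not count regions unaffected by DEX.

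A direct comparison of the siRNAs used regions chosen elsewhere. The 4 h experiment gave 2530 gained regions, 1.52% of 166810, and 729 lost regions, 0.437%. Of the 2530, siGATA6 DEX libraries held 85.6, 85.2 and 91.9% and siGATA6 vehicle libraries 20.6, 21.1 and 27.4%. In siCtl cells the means were 89.4% ± 4.21 (SD, n = 3) with DEX and 21.3% ± 2.28 (SD, n = 3) with vehicle. The effect of DEX was -3.54 percentage points different in siGATA6 from siCtl cells, within the unpaired spread between libraries (permutation p = 0.367). Replicate 3 held the largest share in each group, at 94.1% in siCtl DEX and 23.9% in siCtl vehicle cells. With same-numbered libraries as blocks the difference was also -3.54 (exact sign-flip permutation p = 0.25, the smallest that 3 pairs allow). It was -5.72 without siGATA6_DEX replicate 3, -1.38 without siGATA6_Veh replicate 3 and -1.17 without siCtl_DEX replicate 3. It was -0.834 where libraries were cut to equal peak numbers and the 4 h regions called anew. At the 729 regions lost at 4 h the difference in effect was 6.58 percentage points (permutation p = 0.368). A p above the threshold does not show that the siRNAs act alike.

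Gained regions were also open after 4 h of DEX in cells with no siRNA named. The DEX_DMSO libraries held 57.6, 54.6, 55 and 52.9% of them, and the DMSO libraries 4.35, 5.98, 4.97 and 5.69%. The difference was 49.8 percentage points (two-sided exact permutation p = 0.029, n = 4 and 4, Benjamini-Hochberg adjusted p = 0.0381 over 4 tests). Over all merged regions these groups held 48.9 and 47.1%. Every library was also cut to an equal number of best peaks, set by the smallest library of its experiment, and regions were called anew. At 4 h that library was BRM014 replicate 4, with 41026 peaks, against 88348 to 103956 in the DEX_DMSO and DMSO libraries. The cut thus goes far below what would level DEX_DMSO with DMSO. With it the difference was 10.3 points (exact permutation p = 0.029). Lost regions were held at 11.1% ± 2.06 with DEX and 24.5% ± 3.01 with DMSO (SD, n = 4 each), a difference of -13.4 points (exact permutation p = 0.029, adjusted p = 0.0381). With an equal number of peaks that difference was -0.897 points (exact permutation p = 0.029).

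Of the gained regions 1235 (29.5%) met the full rule at 4 h, 4 of 4 against 0 of 4, and 0 met the reverse. None of the 8 libraries held 840 (20.1%). The 4 h libraries had fewer peaks, 88348 to 103956, than the knockdown libraries. All 3 comparisons gained 1038 regions (24.8%), and 5 regions were lost in all 3. In none of the 14 siCtl and 4 h libraries without inhibitor was a peak found at 113 gained regions (2.70%) and 84 lost regions (7.86%).

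**Figure D4:**
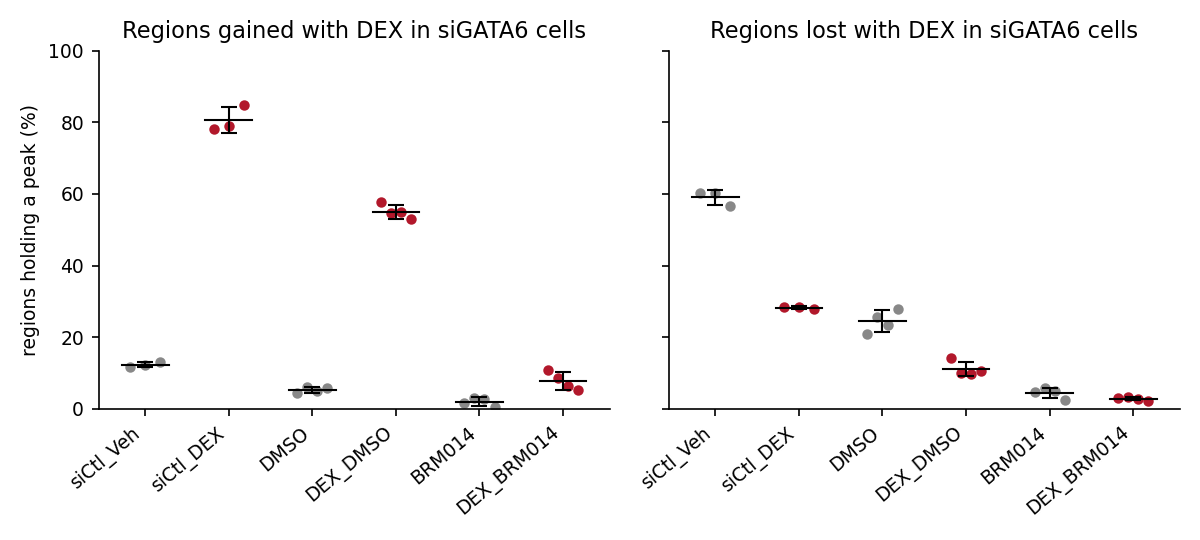
Percent of the 4181 gained (left) and 1069 lost (right) regions that hold a peak in each library of 6 groups not used to choose them; points are libraries, lines means and bars 1 SD (n = 3 or 4). The siCtl DEX libraries lie at 78.1 to 84.9% of gained regions against 11.7 to 13.1% with vehicle, and DEX_BRM014 libraries at 5.36 to 10.9%.

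The SWI/SNF inhibitor went with far fewer open gained regions. With BRM014 and DEX the libraries held 10.9, 8.68, 6.34 and 5.36% of them, and with BRM014 alone 1.6, 3.13, 2.73 and 0.502%. The difference of 5.82 percentage points had an exact permutation p of 0.029 (adjusted p = 0.0381). Without BRM014 replicate 1 it was 5.69 and without replicate 4 it was 5.33, each with an exact permutation p of 0.0571. With an equal number of best peaks it was 2.57 points. The effect of DEX was -44.0 points different with BRM014 than with DMSO (permutation p = 0.00023, n = 4 per group). BRM014 libraries had 41026 to 64198 peaks. They held 27.1% of all merged regions with DEX and 26.2% without. At regions held by all 6 knockdown libraries they held 54.1 and 53.0%, where DEX_DMSO and DMSO libraries held 86.1 and 87.2%. The part of this general fall in the smaller effect was not tested.

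Of the gained regions 3454 (82.6%) were held by no DEX_BRM014 library and 87 by all 4. Of these 87, 57 were held by no BRM014 library. One was the ZBTB16 region chr11:114179194-114179859, and another the region near the zinc finger gene ZNF217, chr20:53622604-53622945, with folds of 13.2, 14.1 and 15.8 in the knockdown DEX libraries. The FKBP5 region chr6:35722352-35722845 was held by 3 of 4, whereas the other strong regions in LAMA3 and near PIK3R1 and PKD1L1 were held by none. Of the lost regions BRM014 libraries held 2.81% with DEX and 4.44% without, a difference of -1.64 points (exact permutation p = 0.114).

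The share of gained regions open elsewhere followed the strength of their peaks. Gained regions were put in 4 equal groups from best to weakest rank. In that order siCtl DEX libraries held 98.9, 90.0, 75.2 and 58.5%, and siCtl vehicle libraries 6.15, 12.2, 15.2 and 15.7%. The DEX_DMSO libraries held 86.6, 59.5, 44.4 and 29.6%, and DMSO libraries 3.13, 5.33, 6.10 and 6.44%. In each rank group the 4 h libraries with and without DEX did not overlap (exact permutation p = 0.029 in each of 4). The siCtl groups gave the full call for 84.2% of the best rank group and 24.1% of the weakest. With BRM014 and DEX the best rank group stood at 12.7% and the weakest at 5.57%. Of the lost regions of the best rank group siCtl vehicle libraries held 79.1% and siCtl DEX libraries 36.2%, and of those of the weakest rank group 40.8 and 21.3%.

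**Figure D5:**
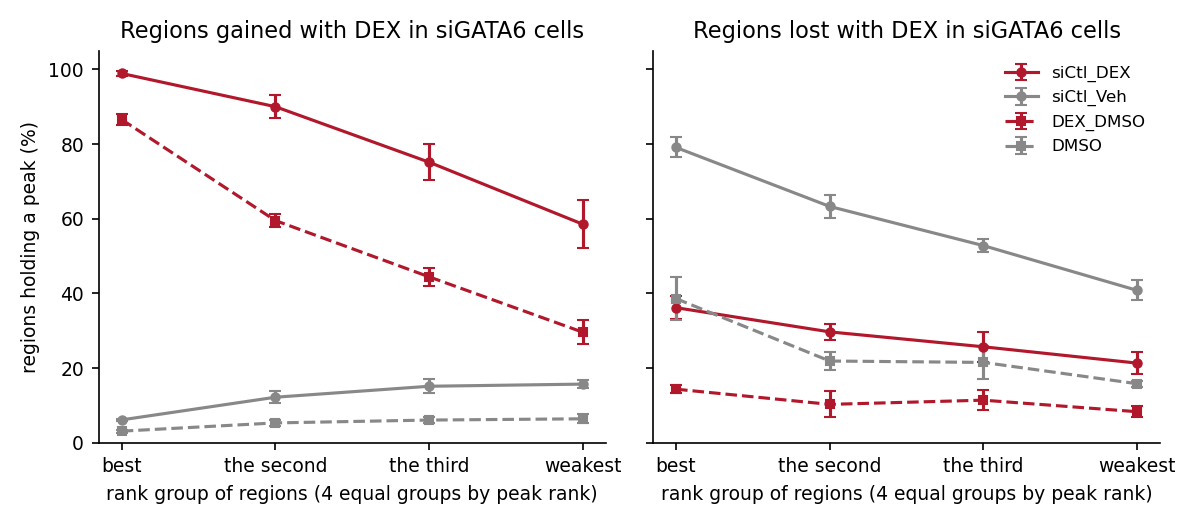
Percent of regions that hold a peak (mean and SD over libraries, n = 3 for siCtl groups and 4 for 4 h groups), by rank group, the gained (left) or lost (right) regions being put in 4 equal groups from best to weakest rank. The siCtl DEX line falls from 98.9 to 58.5% of gained regions while the siCtl vehicle line rises from 6.15 to 15.7%.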

How the data were processed

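The authors deposited 1 MACS2 peak list per library, so peaks were called in single libraries, without pooling. The submitters' processing notes name MACS2, HOMER, SAMtools and bcl2fastq and the build GRCh38 (hg38). What aligner, read shift, duplicate handling and caller settings were used is not given in the sources used here. Each peak has, as the authors deposited it, a score (not used), a fold enrichment at the summit, and −log10 p and −log10 q values, with a lowest −log10 q near 1.30 in each of the 6 libraries. These are the authors' values of single peaks and served only to describe, rank and filter peaks. Peak lists hold no counts, so total depth is unknown. A background level was recovered from the fold and p-value of 3000 weak peaks per library, as the level at which a whole pileup gives both in a Poisson model within 0.002.

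Peaks were merged and called by presence as described, in Python 3.11.15 with NumPy 2.4.6, pandas 2.3.3 and SciPy 1.17.1. The code was tested on simulated data. Group differences were tested with two-sided exact permutation tests, and differences between effects by 100000 permutations of the residuals of an additive model. Adjusted p-values are Benjamini-Hochberg values over the 4 tests with 4 libraries per group. Same-numbered libraries were not treated as pairs. Genes, strands and promoter sequences came from RefSeq tables (GRCh38.p14). Near a gene means a region centre inside it or up to 50 kb away, and distances used both gene ends where no strand was given. All 430 symbols of the 18 gene lists matched, and aliases of 1 gene were counted once. Motifs were planned for regions and searched in promoter windows only, since no genome sequence was used here.

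The members, lists and rules were chosen with earlier results of these data known. Named genes are 12 given in any case, the members of each list with most gained or most lost regions (at most 4 of each), the 12 best ranked gained and lost regions by nearest protein-coding gene, the 10 genes with most gained or lost regions, and the 3 best regions just outside the rule. Some genes that this rule names are not reported here. The 8 libraries of siRNA against BRG1 and BRM with their controls, and MDA-MB-231 cells, were not analysed here. Alternatives were a stricter q, equal numbers of peaks, other overlap and merging rules, other distances and leaving out each library.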

Additional observations from a re-analysis of the deposited data

Results flagged for a closer look

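The effect of DEX on the gained regions differed between cells with and without the SWI/SNF inhibitor. It was 49.8 percentage points with DMSO and 5.82 with BRM014, a difference of -44.0 (permutation of residuals, p = 0.00023, n = 4 libraries per group). The effect on the lost regions was -13.4 points with DMSO and -1.64 with BRM014, a difference of 11.7 (permutation p = 0.00039). Without DEX, BRM014 libraries held only 4.44% of the lost regions, against 24.5% in DMSO libraries. A fall with BRM014 could thus not exceed 4.44 points, so this difference cannot show whether BRM014 changed the effect of DEX on them. Over all merged regions the difference between effects was -0.913 points (permutation p = 0.729). The effect of DEX there was only 1.80 points with DMSO and 0.891 with BRM014, so this value cannot test the general fall in peaks. BRM014 libraries hold fewer peaks, and the part of this in the differences at gained and lost regions was not tested. In 12 sets of values over the 4 libraries of a group, no library stood far from the others.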

How the results depend on the processing

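Directions held under the alternatives run, except for the distal share of peaks, which differed by 0.281 percentage points as reported, by -0.338 with an equal number of best peaks and by -0.275 without siGATA6_DEX replicate 3. At a −log10 q of at least 5, 3322 regions were gained and 633 lost, and the call was kept by 50.6% of gained and 17.6% of lost regions. Leaving out 1 library asks fewer libraries of a region and gave 4904 to 6430 gained regions, the highest without siGATA6_DEX replicate 1. It gave 1569 to 2397 lost regions, with 1800 without siGATA6_DEX replicate 2, 2244 without replicate 3, and 2370, 2397 and 1987 without siGATA6_Veh replicates 1, 2 and 3. The 3 receptor targets with a lost region became 0 within 10 kb and 6 within 100 kb. With BRM014 the difference of gained regions ranged from 4.80 to 6.64 points without single libraries (exact permutation p up to 0.0571). The distal share ranged from -0.275 to 0.731. With an equal number of peaks 77.5% of gained and 79.3% of lost regions kept theirs. A peak always lies within its merged region, so the stricter overlap left the calls as they were. It moved the scores in other libraries little, the 4 h gain to 49.5 points and the siCtl loss to -30.4. The motif window of 400 bp could not be run, as a genome was not used here. The DEX effect by siRNA at regions gained at 4 h ranged from -5.72 to -1.17 points without single libraries and was -1.76 at the stricter q, and the difference in peaks ranged from 2825 to 10195. The former was -2.36 without siGATA6_DEX replicate 2 and the latter 4156 without siGATA6_Veh replicate 2.

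Same-numbered libraries gave little sign of pairing except for replicate 3, and all correlations of deviations were small. Between same-numbered DEX and vehicle libraries they were 0.00952, 0.0156 and 0.0481 in siGATA6 cells, and 0.0212, 0.0393 and 0.101 in siCtl cells. Between other-numbered libraries they ran from -0.0333 to 0.0196 and from -0.0613 to 0.0241. Replicate 3 gave the highest value in both. The labels do not say whether the numbers mark a shared batch, and the main tests did not use them as pairs. With the replicate block the 4 h differences kept their sizes of 49.8, -13.4 and 5.82 points, with an exact sign-flip permutation p of 0.125 for each, the smallest that 4 pairs allow.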
